A study of Mus musculus with 2 samples.

Results

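A small set of hippocampal nuclei that carry Tshz2 together with Vwc2l and its partner markers was described in 2 single-nucleus RNA-seq libraries, 1 from male and 1 from female mice. A barcode was a member if it had at least 4 UMIs (molecules counted once by their tag) over Vwc2l, Cntn6, Pamr1, Cwh43 and Hmga2, at least 3 of these 5 genes detected, and at least 1 Tshz2 UMI. It could have no more than 1 UMI of Gm49906 plus Npsr1, 2 of Gm42705 plus Gm6260, 2 of Gad1 plus Gad2, and 2 of the oligodendrocyte genes St18, Prr5l and Mag together. Barcodes entered with 500 or more genes and a mitochondrial share of UMIs up to 5%. Of 35285 that did, 247 were members, 119 of 16034 male and 128 of 19251 female barcodes. All mice were 3 months old and carried a conditional loss of Stra8 (Stra8L/-; Nestin-Cre), so every nucleus comes from this 1 genotype. Nestin-Cre acts in neural progenitors, and so the deletion reaches neurons and macroglia born from them. Stra8 is best known as a gene of germ cells entering meiosis. Stra8 had 0 UMIs among 972359 in male members and 0 among 1300565 in female members. A count of 0 allows up to 3 UMIs in either set. Excitatory barcodes outside the members, defined below, had 1 Stra8 UMI among 39138592 in the male and 2 among 26176237 in the female library. The 0 in members therefore does not measure the deletion. How many animals stand behind a library is not stated in the labels, and the effects of sex cannot be told apart from those of the animals, their dissection and the library.

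Tshz2, a zinc-finger transcription factor of the teashirt family, is in mouse cortex a marker of near-projecting neurons, glutamatergic cells of layers 5 and 6 whose axons stay mostly local. Deep-layer cells of this kind are found in neocortex and in the retrohippocampal cortex that borders the hippocampus, while the pyramidal and granule neurons of the hippocampus proper carry other factors such as Zbtb20. The markers around Tshz2 have varied roles. Vwc2l encodes a secreted protein with von Willebrand factor C domains, related to extracellular modulators of BMP signals, Cntn6 an immunoglobulin-type adhesion protein held by a GPI anchor, and Cwh43 an enzyme that remodels the lipid of such anchors. Pamr1 encodes a secreted protein with a peptidase-like domain, and Hmga2 a chromatin protein that is mostly embryonic and is held down by let-7 microRNAs.

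Positions of the rule genes with the highest levels in members are those of the mm10 build. Vwc2l (ENSMUSG00000045648) runs from 70725715 to 70885397 on chromosome 1, Cntn6 (ENSMUSG00000030092) from 104492790 to 104863406 on chromosome 6, and Tshz2 (ENSMUSG00000047907) from 169633013 to 170071816 on chromosome 2. RefSeq promoter windows of build GRCm38.p6 matched 7 of 10 genes looked up (the 6 rule genes, Kcnh8, Sntb1, Cntnap4 and Il1rapl2). The 250 bases before the start that RefSeq gives are shown for the 3 rule genes with the highest levels in members, with the E-box CAGCTG in capitals, in reading direction of the gene. The windows are chr1:70725465-70725714 (plus strand) for Vwc2l, chr6:104492794-104493043 (plus strand) for Cntn6 and chr2:169632259-169632508 (plus strand) for Tshz2. The RefSeq starts of Cntn6 and Tshz2 are not those of the gene spans given above, which come from GENCODE, so these windows do not end where those spans begin.
Vwc2l: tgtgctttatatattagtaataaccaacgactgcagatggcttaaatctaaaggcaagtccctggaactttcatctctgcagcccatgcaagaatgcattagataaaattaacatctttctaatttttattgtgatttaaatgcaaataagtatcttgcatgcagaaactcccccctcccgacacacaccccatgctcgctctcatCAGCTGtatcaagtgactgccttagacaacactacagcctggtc
Cntn6: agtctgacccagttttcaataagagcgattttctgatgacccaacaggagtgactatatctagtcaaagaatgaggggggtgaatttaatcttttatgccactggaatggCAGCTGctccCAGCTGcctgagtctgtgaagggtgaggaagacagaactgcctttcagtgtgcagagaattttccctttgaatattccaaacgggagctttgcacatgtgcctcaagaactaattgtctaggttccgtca
Tshz2: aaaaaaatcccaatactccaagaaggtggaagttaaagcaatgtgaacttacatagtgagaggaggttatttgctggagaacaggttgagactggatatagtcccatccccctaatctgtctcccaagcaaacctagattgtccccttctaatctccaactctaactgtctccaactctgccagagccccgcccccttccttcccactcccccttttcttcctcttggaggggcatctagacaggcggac
The E-box, which reads the same on both strands, occurred 1 time before Vwc2l and 2 times before Cntn6, and the window of Tshz2 held 0. Of all 32851 promoter windows of this length, 13.0% held it. Searched on both strands, AACAAT (the SOX motif, in 9.42% of windows), AGGTGT (T-box, 11.8%) and TAATTA (homeodomain, 4.84%) had 0 matches in the 7 windows matched. GC content was 40.8% for Vwc2l, 45.2% for Cntn6 and 48.8% for Tshz2, against a median of 52.4% over all windows.

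Members were set against all other excitatory barcodes, that is barcodes with at least 2 UMIs of the vesicular glutamate transporters Slc17a7 and Slc17a6 and within the same limits on Gad and oligodendrocyte genes. There were 4408 male and 2616 female ones. The denominator was the members plus these others, and members themselves did not have to reach the transporter minimum. A member held 1 Slc17a7 UMI at the median in either library, and 71.4% of male and 64.1% of female members had any. Members made up 2.63% (95% exact Clopper-Pearson interval 2.18 to 3.14) of excitatory barcodes in the male library and 4.66% (3.91 to 5.52) in the female one, a male to female ratio of 0.564 (0.435 to 0.729). Of all filtered barcodes they made up 0.742% in the male library and 0.665% in the female one, a ratio of 1.12 (0.862 to 1.44). The direction therefore depended on the denominator, since the male library held more excitatory barcodes among its nuclei. These intervals, like all that follow, cover counting error only, and with 1 library per sex no test was made. Median depth was 7345 and 8849 UMIs in male and female members, against 7631 and 8489.5 in the other excitatory barcodes of the male and female library. No barcode sequence was shared between male and female members (0), and 101 were shared between the whole libraries.

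The label was checked against marker genes before the comparison, and it did not hold for all members alike. Clustering of the members alone gave 6 subgroups. Subgroups 0, 1 and 2, with 172 members, carried the deep-layer genes and were low in genes of other hippocampal neurons. Subgroups 3, 4 and 5, with 75 members (30.4%), had less Vwc2l and Tshz2 and more RNA of genes that mark other neurons. All 18 members of subgroup 4 came from the female library and carried at least 2 UMIs of Tcf7l2 plus Lef1, factors known from thalamic and habenular neurons. Over all members, 3 male and 23 female barcodes did so. In subgroup 5, 66.7% of 15 members (11 male and 4 female) were among the top 8% of doublet scores of their library, and in subgroup 3 the share was 14.3% of 42 members. Over all members the share was 11.8% (14) in the male library and 3.13% (4) in the female one. The male to female ratio of the member share, with 96 male and 76 female members in subgroups 0 to 2, was 0.755 (0.553 to 1.03) of excitatory and 1.52 (1.11 to 2.08) of filtered barcodes for these subgroups. Results are given for all members as the rule chose them, and some of them also for subgroups 0 to 2 or without the Tcf7l2 and Lef1 barcodes. Levels of many other genes differ as well when subgroups 3 to 5 are left out.

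The values that chose the members are given as description. CPM are the UMIs of a gene per 1000000 UMIs, summed over a set of barcodes in a library. Vwc2l had 1286 CPM (1215 to 1359) in male and 1031 (977 to 1088) in female members, against 42.1 and 30.6 CPM in the other excitatory barcodes of the male and female library. A male member held 9 Vwc2l UMIs at the median and 32 at most, and a female member 9 at the median and 45 at most. Cntn6 was as high, with 1332 and 1063 CPM in male and female members, against 30.8 and 54.9 CPM in other excitatory barcodes. The remaining 3 scored genes were sparse. Pamr1 had 159 and 105 CPM in male and female members, against 4.01 and 3.67 CPM in the others. Cwh43 had 132 and 128 CPM in members, against 3.86 and 5.31 CPM in the others. Hmga2 had 61.7 and 30.8 CPM in male and female members, against 1.12 and 0.764 CPM in the others. Only 27.7% of male and 15.6% of female members had an Hmga2 UMI, so most members met the rule without it. Tshz2 stood at 2236 CPM in male and 1589 CPM in female members, against 178 and 122 CPM in the others. Members of subgroups 0 to 2 had more of each rule gene, with Vwc2l at 1551 and 1774 CPM in male and female members, Tshz2 at 2659 and 2613 CPM and Hmga2 at 79.2 and 64.5 CPM. After each barcode was drawn down to 1500 UMIs, with 1 shallower female member dropped, Vwc2l was detected in 76.5% of male and 73.2% of female members, 3.89% and 2.93% of other excitatory barcodes, and 1.34% and 1.07% of oligodendrocyte barcodes, which should lack it. Unthinned, those shares were 100% and 97.7%, 8.62% and 7.80%, and 2.14% and 1.48%. Oligodendrocyte barcodes were shallower, with median depths of 1818 (male) and 1916 UMIs (female).

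**Figure D1:**
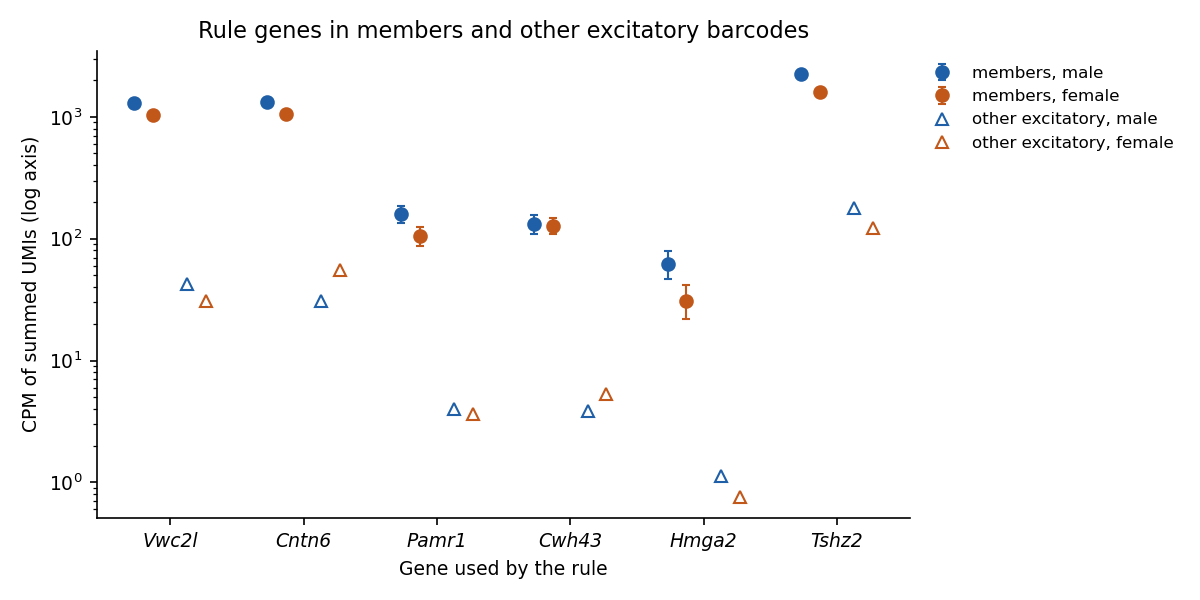
Levels of the 6 rule genes as CPM of summed UMIs on a log axis, for members (filled circles, with exact Poisson 95% intervals) and other excitatory barcodes (open triangles) of the male (blue) and female (orange) library. Every rule gene lies far above its level in other excitatory barcodes, and Hmga2 is the lowest of the 6 in members, at 61.7 CPM in male and 30.8 CPM in female members.

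In the male library 58, 49 and 12 members had 3, 4 and 5 of the 5 scored markers, and in the female library 80, 43 and 5. At the edge of the rule, 3 male and 8 female members had a marker sum of exactly 4. They had 735 and 756 CPM of Tshz2 and 535 and 534 CPM of Il1rapl2. The members further inside, with a sum of 5 or more, had 2259 and 1635 CPM of Tshz2. Just outside, 0 male and 3 female barcodes had 3 markers with a sum of 3, and the 3 female ones held 637 CPM of Tshz2 and 0 of Il1rapl2. A larger fringe had a sum of 4 or more over only 2 of the markers, 79 male and 159 female barcodes, with 138 and 80.8 CPM of Kcnh8. A further 44 male and 22 female barcodes met the marker rule but were over the limit on Gm49906, Npsr1, Gm42705 or Gm6260, and 11 and 8 lacked Tshz2.

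Members carried RNA of vesicular glutamate transporters, though the rule did not ask for it and not every member had an Slc17a7 UMI. Slc17a7, the main vesicular glutamate transporter of cortex, had 188 and 118 CPM in male and female members, against 355 and 267 CPM in the others, which were chosen for these UMIs. Slc17a6, the transporter more typical of thalamus, had 16.5 and 64.6 CPM in male and female members, against 8.61 and 26.4 CPM. In female members it was at 119.9 CPM in the Tcf7l2 and Lef1 barcodes and 43.5 CPM in the rest. In male members it was at 0 and 17.0 CPM. Both transporters were at 0 UMIs in oligodendrocyte barcodes, whose definition excludes them, so these barcodes give no level of free RNA for the transporters.

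Members had been selected on UMIs of the rule genes and of the genes that limit it. Counted over all genes, the rule genes among them, 9666 had at least 10 CPM on either side in both libraries. Of these, 282 (2.92%) were at least 2-fold higher and 198 (2.05%) at least 2-fold lower in members in both libraries, on the log2 scale after 5 CPM were added to each side, which understates the change of low genes. The median gene had log2 ratios of -0.01 (male) and 0.04 (female library). The 6 rule genes are among the 282. Because the rule was applied to the same barcodes, these ratios describe the members and do not test them. In subgroups 0 to 2 the counts were 417 higher (4.23% of 9851) and 544 lower (5.52%), and 267 of the 282 and 197 of the 198 were among them. Without the Tcf7l2 and Lef1 barcodes they were 324 (3.34% of 9695) and 280 (2.89%).

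Kcnh8, which encodes a voltage-gated potassium channel of the ELK family, led the genes outside the rule. It had 396 CPM (357 to 438) in male and 346 CPM (315 to 379) in female members, against 8.02 and 13.5 CPM in the other excitatory barcodes. The log2 ratios were 4.94 and 4.25, and in subgroups 0 to 2 Kcnh8 had 455 and 659 CPM in male and female members. In thinned data 34.5% of male and 37.0% of female members had a Kcnh8 UMI, against 1.37% and 1.83% of other excitatory and 0.722% and 1.12% of oligodendrocyte barcodes. Kcnh8 spans 52602709 to 52979194 on chromosome 17. Kcnip1, a calcium-binding partner of Kv4 potassium channels, had 388 and 258 CPM in male and female members, against 14.1 and 25.5 CPM in the others.

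Several genes of the dystrophin-associated complex, which links the cytoskeleton to the matrix in muscle and neurons, were among the 15 highest. Sntb1, a syntrophin, had 411 and 237 CPM in male and female members, against 11 and 11.9 CPM in the others (log2 ratios 4.70 and 3.84). The sarcoglycan Sgcd was the most abundant of the 15 in male members, with 5761 and 3186 CPM in male and female members, against 430.5 and 458 CPM. Sgcz, another sarcoglycan, had 4276 and 3825 CPM, against 397 and 472 CPM. A male member held 33 Sgcz UMIs at the median and 98 at most, and a female member 32.5 and 156. The 3 genes were grouped here after their values were seen.

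Adhesion and signalling genes made up most of the rest of the 15. Cntnap4, a neurexin-like partner of contactins, had 779.5 and 578 CPM in male and female members, against 25.7 and 39.8 CPM in the others. Il1rapl2, a synaptic relative of interleukin-1 receptors, had 2500 and 1474 CPM, against 134 and 200 CPM. Skap1, an adaptor known from T cells, had 298 and 175 CPM, against 10.1 CPM in both libraries' other barcodes. The actin-binding gene Rai14 had log2 ratios of 3.74 in the male library and 3.33 in the female one, the adhesion receptor Adgrd1 2.86 in each, the receptor kinase Alk 3.43 and 2.79, the phospholipase Plcb4 3.66 and 2.84, and the sialyltransferase St3gal1 2.75 and 2.79. For Plcb4 the thinned share was 31.1% and 37.0% in male and female members but also 8.36% and 9.32% in oligodendrocyte barcodes.

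The 10 genes lowest in members were of mixed kinds, with Gm10754 on the CA1 list and Trhde on the CA3 list. Tafa1, a secreted chemokine-like protein, had 301 and 631 CPM in male and female members, against 2233 and 2568 CPM in the others. In subgroups 0 to 2 it was at 57.2 and 59.4 CPM in male and female members. Iqgap2, a scaffold of the actin cytoskeleton, had 128 and 129 CPM in all members (27.9 and 42.4 in subgroups 0 to 2), against 548 and 591 CPM. The phosphodiesterase Pde11a had 7.20 and 7.69 CPM, against 54.3 and 55.5 CPM. Sema3e, a repulsive guidance ligand, had 26.7 and 63.8 CPM, against 180 and 251 CPM. The integrin Itga8 had log2 ratios of -1.89 and -2.23 in the male and female library, and Trhde, an enzyme that degrades thyrotropin-releasing hormone, -2.26 and -1.90. The other 4 of the 10 lowest were the noncoding RNAs 4921539H07Rik, 1700007F19Rik and Gm10754, and Gm10848, annotated as antisense. The first pair overlap on opposite strands of chromosome 3. Whether counting used strand is not given in the sources, and reads of such partners may not be told apart.

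**Figure D2:**
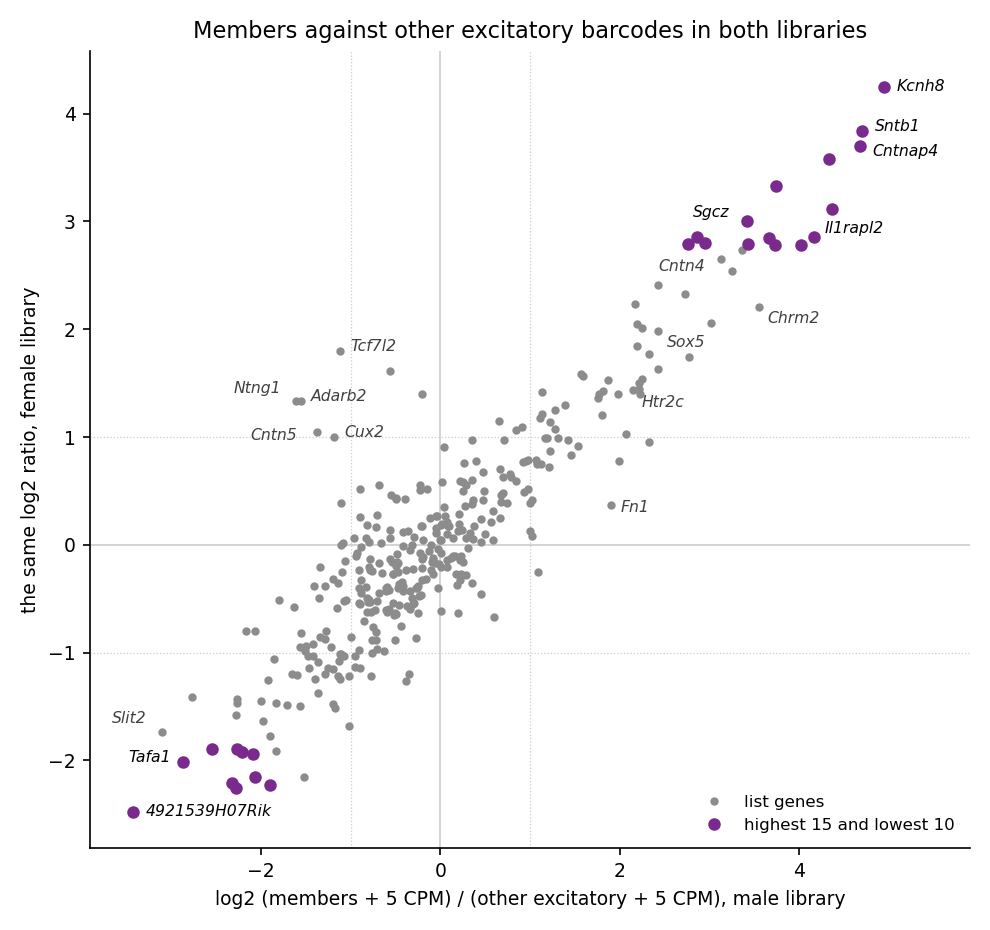
Each point is a gene, with its log2 ratio of members over other excitatory barcodes (5 CPM added) in the male library on the x axis and in the female library on the y axis; purple points are the 15 highest and 10 lowest genes and grey points the genes of the lists. Most genes lie along the diagonal, with Kcnh8 at 4.94 and 4.25, while Tcf7l2, Ntng1, Adarb2, Cntn5 and Cux2 lie at the upper left, lower in male and higher in female members.

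Marker lists of cortical and hippocampal neurons were then compared. Each list is given by the number of its genes at 10 CPM or more on either side in both libraries, and read against the 2.92% higher and 2.05% lower over all genes. Of 6 measured genes of near-projecting neurons, 3 were at least 2-fold higher and 0 lower, with median log2 ratios of 1.41 in the male library and 0.92 in the female one. They were Il1rapl2, Htr2c and Rapgef3. Htr2c, a serotonin receptor, had 372 and 228 CPM in male and female members, against 80.2 and 81.3 CPM. It was uneven among members, at 85.5, 982 and 10.7 CPM in subgroups 0, 1 and 2. Rapgef3, a cyclic AMP sensor, had 63.8 and 31.5 CPM, against 9.45 and 7.60 CPM. Not all near-projecting genes followed. Slc17a8, a further vesicular glutamate transporter, had 0 UMIs in male and 1 in female members. Trhr, a receptor for thyrotropin-releasing hormone, had 10 UMIs in male and 1 in female members. Cpne7 had 37.0 and 79.2 CPM, against 172 and 141 CPM, with log2 ratios of -2.07 and -0.80.

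Layer 6 genes were as prominent. Of 8 genes listed for corticothalamic neurons only 5 were measured. Of these 5, 4 were higher and 0 lower, with medians of 2.19 and 1.44 in the male and female library. In male members 2 of the 8 had 0 UMIs, and in female members 0 of the 8 did. Foxp2, a forkhead factor, had 91.5 and 114 CPM in male and female members, against 9.10 and 30.6 CPM, and the corepressor Tle4 646 and 432 CPM, against 138 and 101 CPM. Hs3st4, an enzyme of heparan sulfate synthesis, had 3037 and 2357 CPM, against 651 and 864 CPM, and Garnl3 218 and 171 CPM, against 60.4 and 61.7 CPM. Of 3 layer 6b genes, Svil and Cdh18 were higher and Nr4a2 had log2 ratios of 1.08 and 0.75. The layer 6b genes Cplx3 and Nxph4 had 0 UMIs in male and female members.

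The other neuron lists ran lower or mixed. Of 5 upper-layer genes only Rorb was higher, at 403 CPM in male and 293 CPM in female members, against 84.3 and 78.1 CPM. Rorb was uneven among members, at 121, 80.2 and 941 CPM in subgroups 0, 1 and 2 and 647 CPM in subgroup 4. Of 5 genes of extratelencephalic layer 5 neurons 0 were higher and 1, the natriuretic peptide receptor Npr3, was lower, at 14.4 and 14.6 CPM against 50.8 and 82.4 CPM. Of 3 subiculum genes 0 passed in both libraries. Fn1, fibronectin, had log2 ratios of 1.90 in the male library and 0.37 in the female one. Of 7 CA1 genes 3 were lower (Gm10754, Ndst4 and Mpped1) and 0 higher, with medians of -0.78 and -1.22. Of 6 CA3 genes 3 were lower (Trhde, Homer3 and Cdh24) and 1, Cpne4, was higher. Of 4 granule neuron genes 1, Glis3, was lower, at 95.6 and 43.1 CPM against 226 and 102 CPM. In subgroups 0 to 2 Glis3 was at 5.87 and 8.49 CPM in male and female members.

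**Figure D3:**
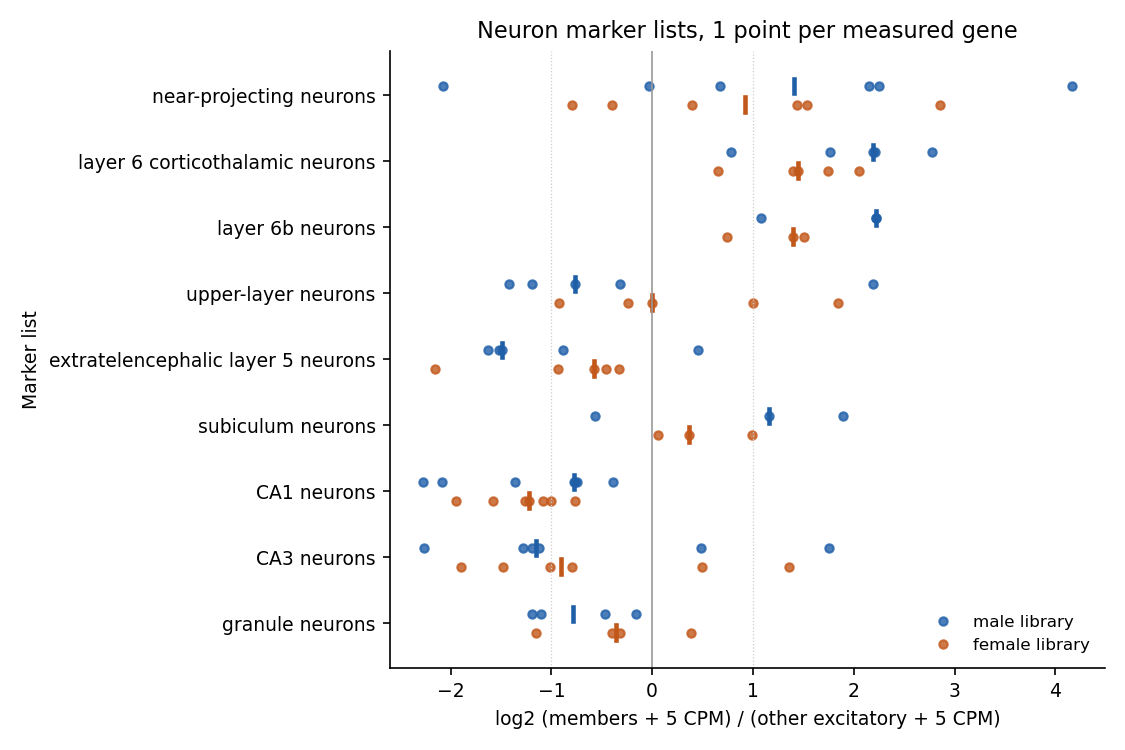
Log2 ratio of members over other excitatory barcodes (5 CPM added) for each measured gene of 9 neuron marker lists, in the male (blue) and female (orange) library, with a bar at the list's median. The layer 6 corticothalamic list has medians of 2.19 and 1.44 and the CA1 list medians of -0.78 and -1.22 in the male and female library.

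Markers of other cell types did not pass 2-fold in both libraries, but GABAergic, thalamic and habenular sums were higher in female members than in the others. Of the genes of oligodendrocytes (5 measured), oligodendrocyte precursors (2), astrocytes (7), microglia (5), vascular and meningeal cells (0), choroid plexus and ependymal cells (3) and GABAergic neurons (3), 0 were at least 2-fold higher in both libraries. Summed oligodendrocyte markers were at 366 CPM in male and 502 CPM in female members, against 613 and 665 CPM in other excitatory barcodes and 5072 and 6389 CPM in oligodendrocytes. GABAergic markers summed to 251 CPM in male and 885 CPM in female members, against 627 and 471 CPM, and most of these UMIs were Adarb2. Without the Tcf7l2 and Lef1 barcodes the female sum was 274 CPM. Lhx6, a defining gene of such cells, was at 0 UMIs in both sets of members. Thalamic and habenular markers summed to 18.5 CPM in male and 335 CPM in female members, and to 11.7 CPM in female members without those barcodes, against 39.5 and 78.1 CPM in the others.

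Among 36 measured cortical transcription factors, 6 were higher and 5 lower, with medians of -0.27 in the male library and 0.04 in the female one. Sox5, a factor of deep-layer neurons, had 1355 and 1055 CPM in male and female members, against 247 and 262 CPM, and the teashirt relative Tshz3 385 and 416 CPM, against 67.4 and 74.0 CPM. Fezf2, which specifies subcerebral neurons, had 54.5 and 30.8 CPM, against 11.9 and 8.33 CPM. Foxp2, Tle4 and Rorb were the other 3. Zbtb20, Zeb2, Meis2 and Tle1 were among the lower 5. Zbtb20, a factor of hippocampal neurons, had 701 and 925 CPM in male and female members, against 2775 and 2882 CPM, with log2 ratios of -3.62 and -3.28 in subgroups 0 to 2. Zeb2, a zinc-finger homeobox factor, had 262 and 265 CPM in male and female members, against 945 and 1014 CPM.

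Adhesion and guidance genes were split. Of 17 contactin-related genes 2 were higher and 3 lower. Cntn4, a close relative of Cntn6, had 3344 and 3262 CPM in male and female members, against 379 and 514 CPM, and Cntnap4 was given above. Cntnap2, Cntnap5c and the phosphatase Ptprg were lower, Cntnap5c at 50.4 and 168 CPM (10.3 and 27.2 CPM in subgroups 0 to 2) against 373 and 457 CPM. Of 21 cadherins 2 were higher (Cdh18 and Pcdh15) and 2 lower (Cdh9 and Pcdh19), while in subgroups 0 to 2 the counts were 3 higher and 8 lower. Pcdh15 was at 817, 710 and 147 CPM in subgroups 0, 1 and 2. Of 28 guidance genes 0 were higher and 6 lower, with medians of -0.62 and -0.41. In subgroups 0 to 2 the counts were 2 higher (Nrp2 and Dcc) and 12 lower, and without the Tcf7l2 and Lef1 barcodes 1 higher and 9 lower. The 6 genes lower in all members were Slit2, Sema3e, Epha6, Epha4, Epha7 and Ntng2, and the repellent Slit2 had 17.5 and 51.5 CPM in male and female members, against 188 and 183 CPM, and 7.34 and 17.0 CPM in male and female members of subgroups 0 to 2. Of 19 BMP and activin genes, the pathway that Vwc2l-related proteins act in, 2 were higher (Fstl5 and Bmper) and 1 lower (Fstl4), with medians of -0.08 in each library. Fstl5 had 422 and 710 CPM in male and female members, against 89.8 and 147 CPM.

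Receptors for transmitters were higher in particular members of each family. Of 16 ionotropic glutamate receptor genes 3 were higher, the kainate subunits Grik1 and Grik3 and the NMDA-type subunit Grin3a, and 1, the AMPA subunit Gria1, was lower. Grik1 had 454 and 509 CPM in male and female members, against 39.5 and 72.2 CPM. It was at 983, 794 and 64.2 CPM in subgroups 0, 1 and 2. Grik3 had 277 and 165 CPM, against 31.4 and 19.5 CPM. Gria1 had 738 and 964 CPM, against 2426 and 2716 CPM. Of 7 metabotropic receptors 3 were higher (Grm4, Grm8 and Grm3) and 0 lower, with medians of 0.70 and 0.91 in the male and female library. Grm8 had 889 and 615 CPM in male and female members, against 173 and 177 CPM. Of 13 GABA receptor genes Gabrg3 was higher (1 gene) and Gabra2 lower (1 gene). Of 14 neuromodulator receptors 3 were higher (Chrm2, Htr2c and Hrh3) and 1, the nicotinic subunit Chrna7, lower. The muscarinic receptor Chrm2 had 176 and 93.0 CPM in male and female members, against 10.4 and 16.2 CPM. It was at 12.6, 311 and 158 CPM in subgroups 0, 1 and 2. Of 8 neuropeptide receptors Hcrtr2, an orexin receptor, was higher, at 95.6 and 70.7 CPM against 5.60 and 8.02 CPM, and the stress peptide receptor Crhr1 was lower. Of 6 genes in the neuropeptide list 2 were higher and 0 lower, the prohormone convertase Pcsk1 and the gastrin-releasing peptide Grp.

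Ion channels and synaptic organisers gave a mixed picture too. Of 30 potassium channel genes other than Kcnh8, 3 were higher (Kcnip1, Kcnh5 and Kcnmb4) and 3 lower (Kcnq5, Kcnt2 and Kcnj6). Of 18 sodium and calcium channel genes 1 was higher (Cacna2d2) and 3 lower (Cacna2d3, Scn3b and Cacna1e). Of 18 synapse organisers 5 were higher (Cbln2, Lrrtm3, Ptprd and Il1rapl1 among them) and 1 lower (C1ql3). Cbln2, a secreted ligand of neurexins, had 46.3 and 23.1 CPM in male and female members, against 1.35 and 1.76 CPM. Lrrtm3, a postsynaptic partner of neurexins, had 835 and 605 CPM, against 122 and 116 CPM. Il1rapl1, a relative of Il1rapl2, had 3359 and 3839 CPM, against 1529 and 1657 CPM.

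For subgroups 0 to 2, where 4.23% of all genes were higher and 5.52% lower, further list counts moved by over 1.5 times. Lower genes numbered 6 among contactins, 4 among ionotropic glutamate receptors, 3 each among neuropeptide receptors, synapse organisers and extratelencephalic layer 5 genes, and 2 each among upper-layer, granule neuron, GABAergic, GABA receptor, BMP and activin, and glucocorticoid target genes. There was 1 lower gene each among near-projecting (Cpne7), thalamic (Tcf7l2), astrocyte and immediate early genes. Higher genes numbered 5 among ionotropic glutamate receptors, 2 among GABA receptors, 1 each in the Hmga and let-7 and the immediate early lists, and 0 among sodium and calcium channels. The layer 6 corticothalamic count stayed at 4 higher and 0 lower, and the layer 6b count was 3 higher.

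Lists close to the rule genes or to Stra8 showed little in all members. Of the Hmga and let-7 list, 10 of 12 genes were under 10 CPM or unmeasured, and the 2 measured were Lin28b, with log2 ratios of 1.19 and 0.99, and Igf2bp3, with 0.56 and 0.21. Of 6 GPI anchor genes 1, Pigk, was lower. Of 6 measured retinoid genes 0 were higher and 0 lower, with medians of 0.00 in the male library and 0.07 in the female one. Of 8 immediate early genes 0 passed in either direction, and of 12 glucocorticoid receptor targets 1, the receptor Nr3c2, was lower. Of 5 genes of excitatory transmission 1, the vesicular zinc transporter Slc30a3, was lower, at 22.6 and 4.61 CPM against 50.8 and 25.9 CPM.

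Further sets of like excitatory barcodes were compared, 80 male and 23 female ones rich in Gm49906 and Npsr1, which the rule leaves out of the members (at least 4 UMIs of the pair), and 33 male and 26 female ones rich in Fn1 (at least 4 UMIs). Tshz2 was high in all 3 sets, with 1793 and 1257 CPM in the Npsr1 barcodes and 1330 and 1181 CPM in the Fn1 barcodes of the male and female library, so that all members differed from them by log2 ratios of 0.75 or less. The members of subgroups 0 to 2 stood higher, at 2659 and 2613 CPM. Sgcz, Tshz3 and Lrrtm3 were likewise high in each set. Tshz3 had 385 and 416 CPM in male and female members, 526 and 630 CPM in Npsr1 barcodes and 591 and 788 CPM in Fn1 barcodes. Kcnh8 set the members apart from both sets, with 7.95 and 49.4 CPM in Npsr1 and 9.35 and 2.35 CPM in Fn1 barcodes. Il1rapl2 did so as well, with log2 ratios of members over Npsr1 barcodes of 4.76 and 2.87 and over Fn1 barcodes of 4.97 and 6.27. Neither gene was particular to members. Barcodes that met the marker rule but were over the limit on Gm49906, Npsr1, Gm42705 or Gm6260 had 172 and 246 CPM of Kcnh8 in the male and female library. They had 1244 and 1200 CPM of Il1rapl2. Those kept out for lack of Tshz2 had 296 and 149 CPM of Kcnh8. Etv1 went the other way, at 110 and 77.7 CPM in members, 210 and 287 CPM in Npsr1 barcodes and 442 and 605 CPM in Fn1 barcodes. Vwc2l was not unique to members. It had 428 and 327 CPM in Npsr1 barcodes, and 70.1 and 0 CPM in Fn1 barcodes.

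The subgroups of members were described by their leading genes, with no test, since the same counts made them. Subgroup 0 (62 members, 29 male and 33 female) was led by Cntn6 and Cntn4, with Grik1, Fstl5, Pcdh15 and Alk. Cntn6 was at 2486 CPM there, against 901 CPM in the other members. Subgroup 1 (62 members, 41 male and 21 female) was led by Fbxl7 and Htr2c. Htr2c was at 982 CPM against 95.3 CPM in the other members, and Hmga2 at 148 CPM against 14.7 CPM. An Hmga2 UMI was found in 56.5% of subgroup 1, in 17.7% of subgroup 0 and in 2.08% of subgroup 2. Subgroup 2 (48 members, 26 male and 22 female) was led by Nxph1, Abi3bp, Bmpr1b, Cadps2 and Rorb. Rorb stood at 941 CPM against 222 CPM, and Kcnh8 at 888 CPM, while Htr2c was at 10.7 CPM and Alk at 42.8 CPM. The rule genes Vwc2l and Tshz2 were high in all 3, with Vwc2l at 1797, 1644 and 1517 CPM and Tshz2 at 3034, 3203 and 1460 CPM in subgroups 0, 1 and 2.

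Subgroups 3 to 5 were deeper, with median depths of 12217.5, 14945.5 and 10683 UMIs, against 6257 to 7835 in the first 3. Subgroup 3 (42 members, 12 male and 30 female) was led by Kcnq5 and Tafa1, and Zbtb20 was at 1883 CPM in it, with Vwc2l at 548 CPM. Subgroup 4 (18 members, all female) was led by Vav3, Lef1 and Plekhg1. It had 3203 CPM of Ntng1, 696 of Tcf7l2 and 139 of Slc17a6, with 162 CPM of Vwc2l, 0 of Kcnh8 and 41.4 of Il1rapl2. Subgroup 5 (15 members) was led by Glis3, Stxbp6 and Trpm3, with 2027 CPM of Zbtb20 and 757 CPM of Vwc2l. The part of doublets and of free RNA in subgroups 3 to 5 was not tested.

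**Figure D4:**
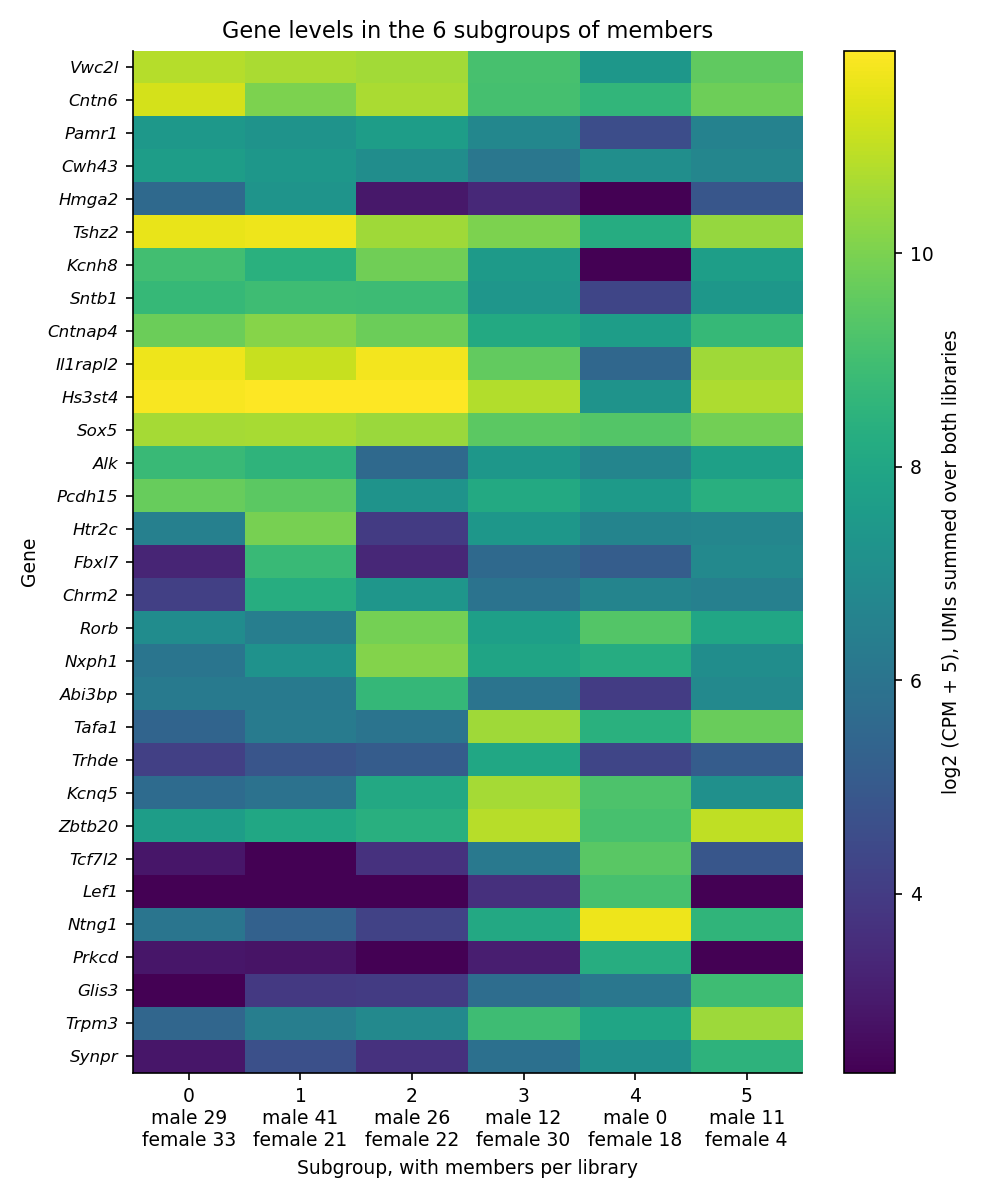
Heat map of log2 (CPM + 5) for rule genes, leading genes and markers (rows) in the 6 subgroups of members (columns, with members per library), UMIs summed over both libraries. Subgroups 0 to 2 share high Vwc2l, Tshz2, Il1rapl2 and Hs3st4 and differ in Htr2c and Rorb, while subgroup 4 is high in Ntng1 and Tcf7l2 and has 0 CPM of Kcnh8.

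Male and female members were compared over 5901 genes with at least 60 UMIs in both sets together. Of these, 52 (0.881%) were at least 2-fold higher and 103 (1.75%) at least 2-fold lower in male members, and the median gene had a log2 ratio of 0.08, against 0.10 in other excitatory barcodes. Sex-linked genes followed the labels. Uty and Eif2s3y, on the Y chromosome, had 154 and 152 UMIs in male and 0 in female members. Xist and Tsix, on the X chromosome, had 0 UMIs in male members and 1798 and 343 UMIs in female members. Tsix overlaps Xist on the other strand, and the same limit on strand applies.

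The remaining 6 genes lowest in male members were all among the 10 leading genes of subgroup 4. Lef1 had 0 UMIs in male and 149 in female members. Tcf7l2 had 10.3 and 169 CPM in male and female members, 16.4-fold higher in female members (8.78 to 34.8), and Plekhg1 5.14 and 167 CPM. Adamts19, Prkcd and Ptprm were the other 3. Without the Tcf7l2 and Lef1 barcodes, 32 genes (0.617% of 5184) were 2-fold higher in male members and 32 (0.617%) lower, and these 32 lower genes held 25 of the 103. The log2 ratios of Tcf7l2 and Lef1 were then -0.16 and 0.00, as the removal fixes, that of Adamts19 was 0.28, and that of Plekhg1 -0.65. Ptprm stayed past 2-fold, at -1.34, with 9 UMIs in male and 30 in female members. In subgroups 0 to 2, 36 genes (0.951% of 3787) were higher and 19 (0.502%) lower.

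Genes higher in male members included some whose levels in the other excitatory barcodes were close between the libraries. Abi3bp, an extracellular matrix protein and leading gene of subgroup 2, had 209 and 53.8 CPM in male and female members, 3.88-fold higher (2.94 to 5.17), while other excitatory barcodes had 4.57 and 3.82 CPM. Within subgroup 2 it had 526 and 278 CPM in male and female members. The noncoding RNA Gm15398 had 189 and 55.4 CPM in male and female members, 3.42-fold higher (2.59 to 4.55), against 33.2 and 32.3 CPM in other barcodes. Fn1 had 68.9 and 19.99 CPM in male and female members, 3.45-fold higher (2.16 to 5.65), against 14.8 and 14.4 CPM. In subgroup 2 Fn1 was at 182 CPM in male and 0 in female members. The hedgehog factor Gli2 had 46 UMIs in male and 16 in female members. The ratios of these 4 genes stayed above 2-fold without the Tcf7l2 and Lef1 barcodes and in subgroups 0 to 2.

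Other differences were of several kinds. Ttr, the transthyretin of choroid plexus, had 518 and 39.2 CPM in male and female members, and 554 and 44.5 CPM in other excitatory barcodes. It was at 1530 and 124 CPM in male and female oligodendrocyte barcodes, which should lack it. Dpp10, a Kv4 channel subunit named by the same rule once the Tcf7l2 and Lef1 barcodes were left out, had 310 and 899 CPM in male and female members, against 546 and 417 CPM in other excitatory barcodes. In subgroup 1 it was at 155 CPM in male and 3809 CPM in female members, but few barcodes carried these UMIs. The median member of either library had 0 Dpp10 UMIs, 35.5% of subgroup 1 had any, and 1 barcode held 460 of the 1169 UMIs of female members and 1 held 134 of the 301 UMIs of male members. Subgroup 3 ran the other way, at 1235 CPM of Dpp10 in male and 299 CPM in female members, and subgroup 4, all female, had 1186 CPM. Dpp10 was also high in the Npsr1 barcodes, at 3584 and 1983 CPM. Its log2 ratio of male over female was -1.41 without the Tcf7l2 and Lef1 barcodes and -2.77 in subgroups 0 to 2. The ligand Efna5 had 227 and 86.0 CPM in male and female members without those barcodes, a log2 ratio of 1.35, against -0.41 in other excitatory barcodes. In subgroups 0, 1 and 2 Efna5 was at 149, 351 and 283 CPM in male and 56.5, 153 and 153 CPM in female members.

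**Figure D5:**
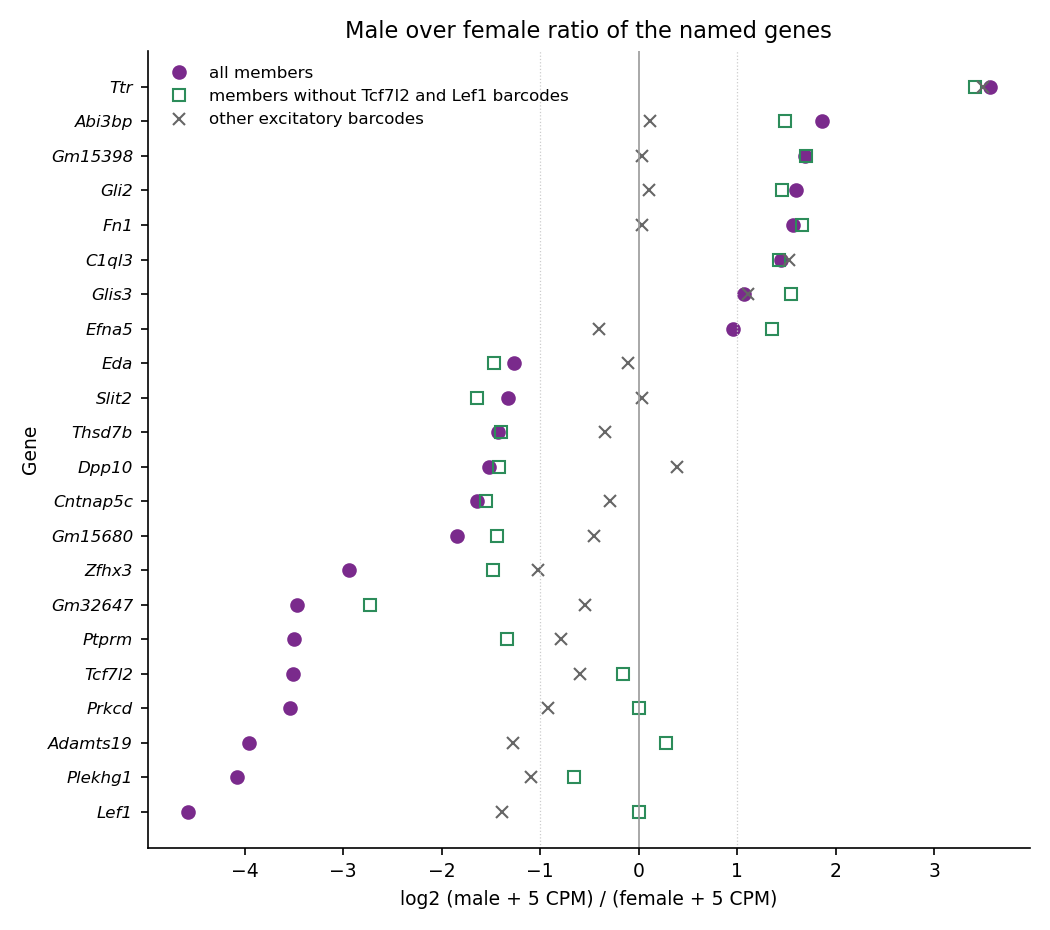
Log2 ratio of male over female (5 CPM added) for autosomal and X-linked genes chosen by the naming rule, outside Xist and Tsix, in all members (purple circles), in members without barcodes of at least 2 Tcf7l2 plus Lef1 UMIs (green squares) and in other excitatory barcodes (grey crosses). Lef1, Plekhg1, Adamts19, Prkcd and Tcf7l2 move to between -0.65 and 0.28 when those barcodes are left out and Ptprm to -1.34, whereas Abi3bp, Gm15398, Gli2 and Fn1 stay above 1 and lie near 0 in other excitatory barcodes.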

How the data were processed

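Nuclear RNA of hippocampus was captured with 10x 3' v3.1 chemistry, per the labels' protocols. The deposited files hold raw UMI counts per gene and barcode, made by the authors using version 7.0.1 of Cell Ranger, per the file headers. The submitters' processing notes name bcl2fastq 2.20.0.422 and the mm10 build. Which annotation was used, whether intronic reads counted and how nuclei were called is not given in the sources. In all, 16174 male barcodes held 103262825 UMIs and 20150 female barcodes 108286856.

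Members and lists were chosen with earlier results of these data known. UMIs were summed per library and set of barcodes and given as CPM, computed here from the deposited counts. Ratios are log2 of CPM plus 5 on each side, at minimums of 10 CPM (members against others) or 60 UMIs (male against female). Intervals are exact at 95% (Poisson, Clopper-Pearson, conditional binomial), and PCR or free RNA is outside them. The ratio was checked on simulated counts. Outside the rule genes, the text names the 15 highest and 10 lowest genes against other excitatory barcodes, the 8 highest and 8 lowest between male and female members (again without Tcf7l2 and Lef1 barcodes), and genes of the lists, except a few genes that are not reported here. Doublets were scored with Scrublet in scanpy 1.11.5 and the top 8% per library marked, 1241 male and 1445 female barcodes after ties. They were kept in the main values. Subgroups came from 2000 variable genes with library means taken off, 15 components, 15 neighbours and Leiden resolution 0.5. Promoters came from RefSeq, build GRCm38.p6. Gene positions came from GENCODE vM21.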

Additional observations from a re-analysis of the deposited data

Results flagged for a closer look

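Only genes of the lists and genes named above were searched here, not all genes measured. In 7 of them the ratio of members to other excitatory barcodes was at least 2-fold in opposite directions between the libraries. The difference between the libraries was not tested, as there is 1 library per sex. For Tcf7l2, a thalamic and habenular factor, the log2 ratios were -1.11 in the male library and 1.80 in the female one (male minus female -2.91). For the netrin relative Ntng1 they were -1.60 and 1.33 (-2.94), for the editing-enzyme relative Adarb2 -1.56 and 1.34 (-2.89), and for the contactin Cntn5 -1.37 and 1.05 (-2.42). For the upper-layer factor Cux2 they were -1.19 and 1.00 (-2.19), for Plekhg1 -1.40 and 1.59 (-2.99), and for the phosphatase Ptprm -1.21 and 1.5 (-2.71). Without members of at least 2 Tcf7l2 plus Lef1 UMIs (3 male and 23 female), the ratios in the male and female library were -1.84 and -2.28 for Tcf7l2, -1.63 and -1.46 for Ntng1, -1.54 and -0.91 for Adarb2, -1.51 and -1.29 for Cntn5, -1.17 and -1.07 for Cux2, -1.53 and -1.97 for Plekhg1 and -1.46 and -0.91 for Ptprm. All 7 were then lower in members in both libraries. That result for Tcf7l2 is fixed by the removal.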

How the results depend on the processing

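No paired analysis was possible because each sex has 1 library and no test was made, and a library could not be left out without losing a group. The member share of excitatory barcodes was higher in the female library under every setting tried, with a male to female ratio that moved to 0.419 when 2 markers summing to 3 were enough (4.70% and 11.2%), to 0.737 with an excitatory minimum of 1 transporter UMI (1.56% and 2.12%), and to 0.755 (0.553 to 1.03) without subgroups 3 to 5 (2.13% and 2.82%). Other shares that moved were 3.22% male at 1000 genes and 1% mitochondrial UMIs, 3.58% male without the limit on Gm49906, Npsr1, Gm42705 and Gm6260, 8.15% and 17.1% with a minimum of 4 transporter UMIs, 7.37% female and 4.41% male after thinning to 5000 UMIs, and 3.86% female without Tcf7l2 and Lef1 barcodes. The share settings without subgroups or without those barcodes, like the same settings below, were chosen after seeing the data.

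Genes 2-fold higher and lower in members numbered 157 and 106 with 20 CPM added, 335 lower with the mean of CPM over barcodes, and 544 lower without subgroups 3 to 5. Other settings kept these counts within 1.5 times. Genes higher in male members numbered 81 with 1 CPM added, 28 when centred on the median gene, and 32 without Tcf7l2 and Lef1 barcodes. Genes higher in male and in female members numbered 16 and 65 with 20 CPM added, 96 and 165 at a minimum of 30 UMIs, and 26 and 66 at 120. Genes higher in female members numbered 32 without Tcf7l2 and Lef1 barcodes and 19 without subgroups 3 to 5. Of single named genes, Adamts19 (0.28) and Prkcd (4.83e-05) changed sign between male and female members without Tcf7l2 and Lef1 barcodes. Of the others, 715 values kept direction and 2-fold and 9 were under 2-fold. Precision is limited by 247 members, most of all for sparse genes such as Hmga2.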
